A study of Mus musculus with 4 samples.

Results

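The genes described here are 9 RNAs that are read out as markers of macrophage activation, Mrc1, Arg1, Nos2, Retnla, Chil3, Cbr2, Mgl2, Folr2 and Igf1, which were taken by symbol from the 32285 genes in the files, and each symbol matched 1 row. They were followed across the monocyte, macrophage and dendritic cells of MC38 tumors. MC38 is a mouse colon adenocarcinoma line, here grown under the skin of C57BL/6 mice. The tumor cells were either wild type (WT) or carried RAC1 A159V, a substitution in a small GTPase that CRISPR-Cas9 editing placed in both endogenous copies of Rac1, as 1 clone. Mice with tumors of each genotype received either anti-PD1 (RMP1-14), which blocks an inhibitory receptor of T cells, or an IgG isotype control. This makes 4 groups, and where values follow each other without names they run from WT to A159V, with IgG before anti-PD1 in each. Only the tumor cells carried the substitution, and the macrophages are host cells in every group.

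Resting macrophages can be pushed toward opposite states. Interferon gamma and bacterial products give the classical state, in which nitric oxide synthase (Nos2) turns arginine into nitric oxide, and interleukin 4 and interleukin 13, acting through STAT6, give the alternative state, in which arginase (Arg1) turns the same arginine into ornithine and urea. Retnla (RELM alpha) and Chil3 (Ym1) are secreted proteins of the alternative state. Mrc1 (CD206) and Mgl2 (CD301b) are lectin receptors that take up glycoproteins. Folr2 (a folate receptor) and Cbr2 (a carbonyl reductase) mark macrophages of the tissue-resident type, and Igf1 is a growth factor that macrophages and fibroblasts both make. In tumors these genes are often seen together in cells that do not fall into either state.

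The groups had 1 library each, so no comparison could be tested against replicates and all intervals are 95% intervals of counting error alone. How many mice were pooled into a library is not given in the sources used here. The libraries held 7430 to 9311 barcodes and 54402632 to 125227747 unique molecular identifiers (UMIs, 1 per captured RNA molecule), of which 6466 to 8248 cells with a median of 3370 to 4183 UMIs were analyzed. Pairs of libraries shared 13 to 22 barcodes. CD45+ and CD45− cells were separated on beads and remixed at a set ratio, so that step set part of the shares of immune, tumor and stromal cells. The WT anti-PD1 library stood apart, with 2 tumor-like cells and 1588 fibroblast-like cells, against 654 to 2472 and 149 to 190 in the other libraries. It also differed in its macrophages, and counts of genes past 2-fold in macrophage-like cells are also given at a fixed make-up, in which the subset levels of the first library of a comparison are weighted by the subset shares of the second.

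A level is the sum of a gene's UMIs in a class of cells per 1e+06 UMIs of the class (CPM). The cells were named from marker genes alone, so each name ends in "-like". Macrophage-like cells, which carried C1qa, C1qb, C1qc, Adgre1 and other markers, numbered 1308, 1807, 1358 and 1818 in the 4 libraries. They fell into 5 subsets, named by leading genes other than the 9: C1qa/C1qc, Cxcl3/Pf4, Mmp12/Ccl6, H2-Aa/H2-Eb1 and Ccl8/Apoe. Arg1 was itself among the 5 leading genes of the Mmp12/Ccl6 subset, and Mrc1 and Retnla among those of the Ccl8/Apoe subset. The 9 genes were kept out of the genes used for clustering. The C1qa/C1qc subset made up 46.6% of the macrophage-like cells of WT IgG. In WT anti-PD1 the Mmp12/Ccl6 subset held 1006 cells and the Ccl8/Apoe subset 538, which is 55.7% and 29.8% of its macrophage-like cells. The other libraries held 22 to 72 and 29 to 139 cells of these subsets, or 1.62% to 5.5% and 2.22% to 7.65%. Classical monocyte-like cells numbered 61 in WT anti-PD1 and 1084 to 1364 elsewhere.

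In GRCm38 with GENCODE M21, the arginine enzymes lie at chr10:24915221-24927484 (Arg1, minus strand) and chr11:78920787-78960254 (Nos2, plus strand). The receptors lie at chr2:14229392-14332057 (Mrc1, plus), chr11:70130329-70137550 (Mgl2, plus) and chr7:101839988-101857194 (Folr2, minus). The others lie at chr16:48842551-48844461 (Retnla, plus), chr3:106147554-106167564 (Chil3, minus), chr11:120729489-120732114 (Cbr2, minus) and chr10:87858265-87937042 (Igf1, plus). Promoters are shown because the signals that drive the alternative state act there through STAT6, whose site is a spaced repeat. RefSeq promoter windows (GRCm38.p6) were found for 7 of the 9 genes, in 8 windows, and Arg1 and Nos2 had none. The 250 bases before the start are printed from 5′ to 3′ on the coding strand for Retnla (chr16:48842359-48842608, plus strand) and Mgl2 (chr11:70130107-70130356, plus strand), with the motif match in capitals.
Retnla: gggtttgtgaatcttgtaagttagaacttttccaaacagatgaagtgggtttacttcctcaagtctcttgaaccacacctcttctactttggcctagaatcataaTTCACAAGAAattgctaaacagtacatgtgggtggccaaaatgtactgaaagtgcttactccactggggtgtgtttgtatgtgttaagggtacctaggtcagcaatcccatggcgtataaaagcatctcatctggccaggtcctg
Mgl2: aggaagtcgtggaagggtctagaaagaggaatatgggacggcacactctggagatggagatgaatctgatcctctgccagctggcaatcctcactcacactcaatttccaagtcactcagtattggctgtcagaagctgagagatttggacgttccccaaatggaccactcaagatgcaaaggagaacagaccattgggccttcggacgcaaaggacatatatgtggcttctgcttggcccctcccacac
The capitals in Retnla mark a STAT6-type match, TTC and GAA with 4 bases between them, which lay 145 to 136 bases before the start. This motif reads the same on both strands and was present in 5.85% of the 32851 mouse promoter windows. Of the 7 genes with a window, Retnla was the 1 with this match. A GAS-type match, TTC and GAA with 3 bases between them, lay 172 to 164 bases before the start of Chil3. No other member had it, and 7.02% of all windows did. Mgl2 is shown as the member with most of its UMIs in dendritic cells, and its window did not hold this motif. ISRE-type, C/EBP-type and hypoxia (ACGTG) motifs, searched on both strands, were found in none of the 8 windows and in 2.98%, 1.74% and 16.6% of all windows. These are matches of letters and not binding sites.

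The first question was where each gene is expressed among the myeloid cells. Arg1 and Mrc1 were macrophage genes in all 4 libraries, since macrophage-like cells held 86.3% to 96.5% of all Arg1 UMIs and 83.1% to 89.4% of all Mrc1 UMIs. Chil3 was a monocyte gene instead, with 76.2% to 80.2% of its UMIs in classical monocyte-like cells of the libraries other than WT anti-PD1. Mgl2 was mainly a dendritic gene, with 46.9% to 61.1% of its UMIs in Cd209a dendritic-like cells, which express class II genes and the lectin Cd209a. Igf1 was mainly a fibroblast gene, with 78.3% to 84.3% of its UMIs in fibroblast-like cells. These shares also depend on how many cells of each class a library held.

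**Figure D1:**
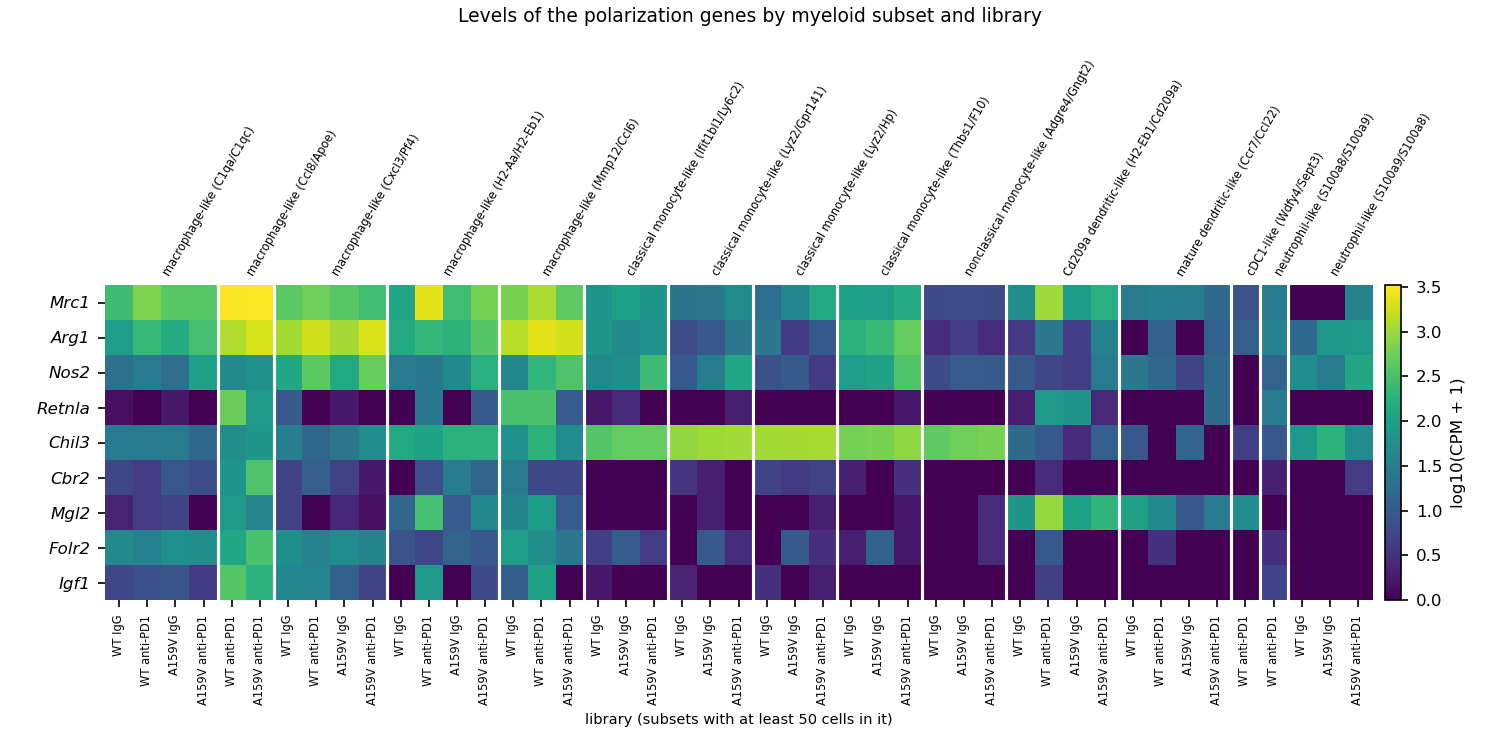
Levels of the 9 genes (rows, log10 of CPM + 1) in each myeloid subset with at least 50 cells in a library (columns, grouped by subset). Chil3 was high across the monocyte subsets, Mgl2 in Cd209a dendritic-like cells, and the other genes in macrophage-like subsets, with Mrc1 highest in the Ccl8/Apoe subset.

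Within the macrophage-like cells, the Ccl8/Apoe subset was the top subset for Mrc1, Cbr2, Folr2 and Igf1. Its Mrc1 level was 3197 CPM in WT anti-PD1 (538 cells) and 3326 CPM in A159V anti-PD1 (139 cells), and in the smaller IgG subsets it was 2587 CPM (WT, 29 cells) and 2585 CPM (A159V, 45 cells). The other macrophage-like subsets ranged from 120 to 2349 CPM of Mrc1. Cbr2 reached 66.0 CPM in the Ccl8/Apoe cells of WT anti-PD1 and 231 to 356 CPM in the other 3 libraries, and it did not pass 30.5 CPM in any other macrophage-like subset. Folr2 showed the same order, with 123 CPM in WT anti-PD1 and 319 to 621 CPM elsewhere. Among macrophage-like subsets, the Ccl8/Apoe cells thus held the highest Cbr2 and Folr2 levels in every library.

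Arg1 was high in 3 subsets that did not separate from each other. Its level was 1424 to 2336 CPM in the Mmp12/Ccl6 subset over the 3 libraries with at least 50 such cells, 1101 to 2141 CPM in the Cxcl3/Pf4 subset and 1260 to 2018 CPM in the Ccl8/Apoe subset of the anti-PD1 libraries. These ranges overlap, and the order of the 3 subsets changed from library to library. The C1qa/C1qc subset (93.7 to 307 CPM) and the H2-Aa/H2-Eb1 subset (139 to 389 CPM), which is led by class II antigen presentation genes, lay below them in every library. Among monocytes, the Thbs1/F10 subset held the most Arg1, at 181 CPM in WT IgG, 236 CPM in A159V IgG and 491 CPM in A159V anti-PD1.

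Nos2 followed part of the Arg1 pattern. It was highest in the Cxcl3/Pf4 subset, at 124, 427, 134.5 and 510.5 CPM in the 4 libraries. The Mmp12/Ccl6 subset followed with 40.3 and 205 CPM in the WT libraries and 359 CPM in A159V anti-PD1, and the Thbs1/F10 monocyte subset with 90.6 CPM in WT IgG and 111 and 372 CPM in the A159V libraries. The ranges of these 3 subsets over libraries overlapped. It parted from Arg1 in the Ccl8/Apoe subset, where Nos2 was 45.0 CPM in WT anti-PD1 and 57.7 CPM in A159V anti-PD1. Most Nos2 RNA lay outside the macrophages in 3 libraries. Macrophage-like cells held 11.0%, 61.4%, 9.59% and 25.8% of all Nos2 UMIs in the 4 libraries. Tumor-like cells held 18.3%, 72.6% and 50.9% in WT IgG, A159V IgG and A159V anti-PD1 at 15.5, 20.2 and 44.7 CPM. An unnamed cluster led by Tafa1 and Sema3a held 1236 of the 2219 Nos2 UMIs of WT IgG. It had 1349 cells there, and 326 and 322 in A159V IgG and A159V anti-PD1. The tumor list scored second for this cluster, and its cells had a median of 24124 UMIs. Whether they are carcinoma cells was not tested, so the tumor-like shares do not compare the genotypes.

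Chil3 was higher in monocytes than in macrophages. In the 3 libraries other than WT anti-PD1 its level was 645, 837 and 914 CPM there (WT IgG, A159V IgG and A159V anti-PD1), and in nonclassical monocyte-like cells, the patrolling type, it was 438, 548 and 622 CPM. Macrophage-like cells of the same libraries held 52.4, 41.3 and 70.0 CPM. The levels of the 2 monocyte classes lay closer to each other than to that of macrophage-like cells in each of these libraries, and among macrophage-like subsets the H2-Aa/H2-Eb1 cells held the most, at 138 to 184 CPM. A share of 42.0%, 48.3% and 48.6% of classical monocyte-like cells carried a Chil3 UMI after each cell was thinned to 1500 UMIs, against 7.42%, 4.64% and 6.83% of macrophage-like cells and 0.121% to 0.936% of T-like cells, which should lack the gene.

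Retnla was carried by very few cells. It had a UMI in 21, 140, 18 and 15 macrophage-like cells of the 4 libraries. In A159V IgG a single cell carried 109 of the 186 Retnla UMIs of the class (58.6%). The 10 highest cells held 87.9%, 47.6%, 95.7% and 90.6% of Retnla UMIs in the 4 libraries. Most of these UMIs came from the Mmp12/Ccl6 and Ccl8/Apoe subsets, and in the C1qa/C1qc subset, the largest of the IgG libraries, 0 to 1 UMIs were counted. A Retnla level of 66.9 CPM in Cd209a dendritic-like cells of A159V IgG likewise came from 40 UMIs that lay in 0.439% of 228 cells, a single cell.

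**Figure D2:**
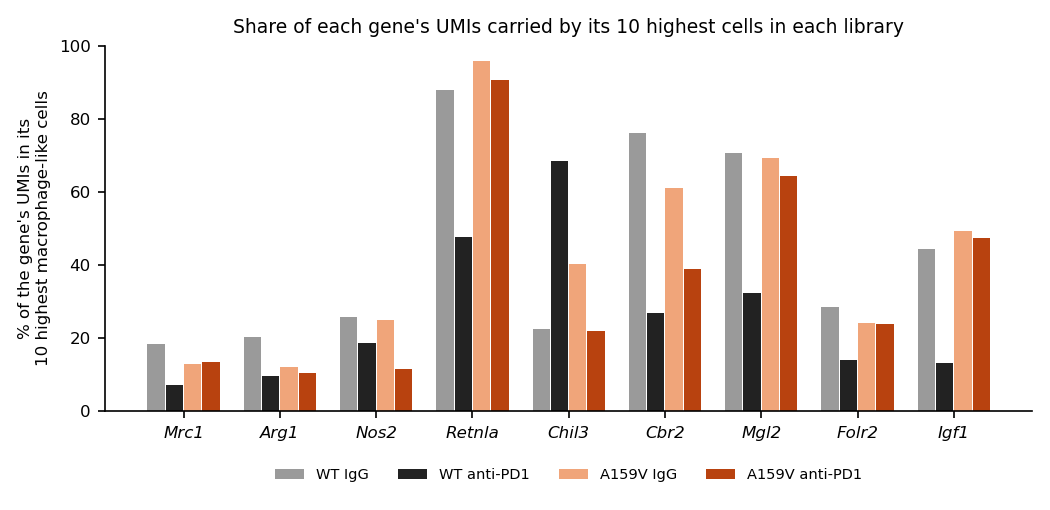
Share of each gene's UMIs (y axis, %) that lay in its 10 highest macrophage-like cells, for each gene and library (bars from 0). Retnla stood at 47.6% to 95.7%, while Mrc1 and Arg1 stayed between 6.97% and 20.1%.

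Levels per library were next compared in macrophage-like cells as a whole. A gene is called higher or lower here when its log2 ratio of CPM + 1 passed 2-fold and it reached 10 CPM in 1 of the libraries. The call is a size and not a test. The 9 genes were chosen with earlier results of these data known. The shares of all genes beside their counts are thus given for scale and do not measure enrichment. Over the class, 6 of the 9 genes were highest in WT anti-PD1, Nos2 and Cbr2 were highest in A159V anti-PD1, and Folr2 was highest in A159V IgG, where its interval overlapped that of WT anti-PD1.

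**Figure D3:**
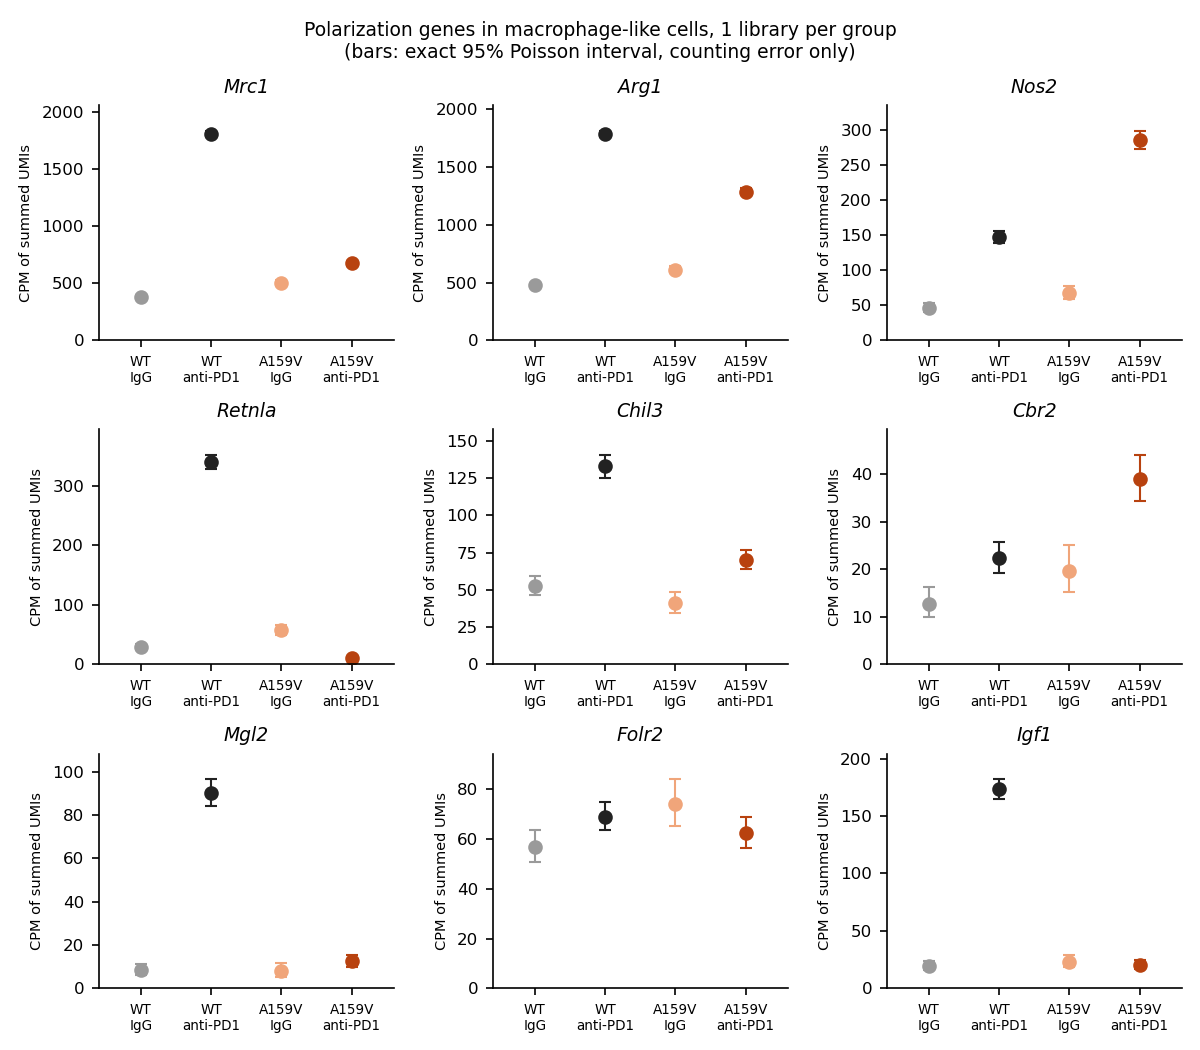
Level of each gene in macrophage-like cells of the 4 libraries (CPM of summed UMIs, linear axes from 0), with exact 95% Poisson intervals as bars. Mrc1, Arg1, Retnla, Chil3, Mgl2 and Igf1 were highest in WT anti-PD1, Nos2 and Cbr2 in A159V anti-PD1, and the Folr2 intervals of neighboring libraries overlapped.

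The genotype was compared without treatment first, in A159V IgG against WT IgG. None of the 9 genes passed 2-fold, against a background of 0.815% of 8221 genes higher and 0.693% lower, and 8 of the 9 reached the minimum level. Mrc1 was 379 CPM in WT IgG and 502 CPM in A159V IgG (log2 ratio 0.40, 0.31 to 0.50), and Arg1 was 477 and 613 CPM (0.36, 0.28 to 0.44). Nos2 was 46.5 and 67.7 CPM (0.53, 0.28 to 0.79). These values did not keep their direction throughout, since at a fixed make-up Arg1 was −0.05 and Nos2 0.14, and in cells with more than 1000 genes Mrc1, Arg1 and Nos2 were −0.0096, −0.11 and −0.04. Retnla came closest to the threshold, at 28.4 and 57.3 CPM (0.99, 0.68 to 1.29), and it passed under 9 of 13 other ways of processing the counts, but 1 cell of A159V IgG held most of its UMIs. Without the 10 highest cells of each library, the levels were 3.47 and 2.49 CPM. At a fixed make-up Retnla (1.49) was the 1 gene past 2-fold, where 0.668% of 8234 genes were higher and 0.559% lower. Chil3 was 52.4 and 41.3 CPM in macrophage-like cells (−0.34, −0.63 to −0.05) and 645 and 837 CPM in classical monocyte-like cells (0.38, 0.29 to 0.46). Within subsets, Mrc1 was higher in the H2-Aa/H2-Eb1 cells of A159V IgG (274 against 120 CPM, log2 ratio 1.18, 0.79 to 1.57), while in the Cxcl3/Pf4 cells it was 404 and 432 CPM (−0.10, −0.27 to 0.08). Igf1 was lower there, at 11.3 CPM in A159V IgG and 42.6 CPM in WT IgG (−1.82, −2.59 to −1.05).

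Anti-PD1 in WT tumors gave the widest differences. Of the 9 genes, 7 were higher with anti-PD1 and 0 were lower, where 5.76% of 8417 genes were higher and 5.92% lower. The median log2 ratio was 1.90 over the 9 genes and −0.05 over all genes. Retnla was 28.4 CPM in WT IgG and 340 CPM in WT anti-PD1 (log2 ratio 3.53, 3.30 to 3.76), Mgl2 8.39 and 90.3 CPM (3.28, 2.89 to 3.67), and Igf1 19.8 and 174 CPM (3.07, 2.79 to 3.34). Mrc1 was 379 and 1810 CPM (2.25, 2.19 to 2.32), Arg1 477 and 1787 CPM (1.90, 1.842 to 1.963), Nos2 46.5 and 147.5 CPM (1.64, 1.45 to 1.84) and Chil3 52.4 and 133 CPM (1.33, 1.14 to 1.51). Nos2, the enzyme of the classical state, was thus higher together with genes of the alternative state in this class. Further classical activation genes, listed below, did not share this, with 1 higher and 3 lower of 17 and a median log2 ratio of 0.06. Cbr2 (0.76, 0.38 to 1.13) and Folr2 (0.28, 0.08 to 0.47) stayed under 2-fold. The Cbr2 value depended on the processing, with 3 of 13 other ways passing 2-fold (up to 1.90) and a value of −0.08 in cells with more than 1000 genes. In WT anti-PD1 the Chil3 difference rested on few cells, since 1 cell held 308 of 1162 UMIs (26.5%), and without the 10 highest cells of each library the levels were 42.4 CPM there and 40.9 CPM in WT IgG. Retnla without its 10 highest cells was 179 CPM in WT anti-PD1 and 3.47 CPM in WT IgG. The Nos2 ratio was 0.01 when each library was clustered on its own, which gave a different macrophage-like class.

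Since the macrophage subsets differed in size between these libraries, the same genes were compared within subsets and at a fixed make-up. At the make-up of WT IgG 4 of the 9 genes were past 2-fold higher and 0 lower, where 3.6% of 8415 genes were higher and 3.9% lower. The log2 ratio was 0.54 for Retnla, 0.69 for Arg1, −0.05 for Chil3 and 1.19 for Igf1. This make-up gives 46.6% and 25.8% of the weight to the C1qa/C1qc and Cxcl3/Pf4 subsets, which held 58 and 69 cells in WT anti-PD1. Those cells held 0 and 0 UMIs of Retnla, 1 and 3 of Cbr2, 9 and 4 of Chil3 and 11 and 10 of Folr2. The ratios of these genes at the make-up thus rest on few UMIs, and no interval is given for them. Retnla in the Mmp12/Ccl6 subset was 322 CPM in WT IgG and 320 CPM in WT anti-PD1 (−0.01, −0.31 to 0.28), and Arg1 was 0.68 to 1.27 higher on the log2 scale in the 4 subsets with enough cells. The Retnla, Arg1 and Chil3 ratios were thus under 2-fold at a fixed make-up, whereas Mgl2 (2.84), Mrc1 (1.53), Nos2 (1.51) and Igf1 were over it. Cbr2 turned to −0.63, and in the Mmp12/Ccl6 subset it was 26.9 CPM in WT IgG and 4.76 CPM in WT anti-PD1, from 8 and 24 UMIs (−2.275, −3.35 to −1.20). Mrc1 was 120 CPM in the H2-Aa/H2-Eb1 subset of WT IgG and 2349 CPM in that of WT anti-PD1 (4.28, 4.01 to 4.54), and Mgl2 was 13.8 and 296 CPM (4.33, 3.59 to 5.06). Nos2 was higher in the Cxcl3/Pf4 subset (124 and 427 CPM, 1.78, 1.44 to 2.12) and the Mmp12/Ccl6 subset (40.3 and 205 CPM, 2.32, 1.52 to 3.12), and in the H2-Aa/H2-Eb1 subset it was 26.6 and 25.2 CPM (−0.08, −0.94 to 0.78). The Folr2 ratio was −0.75 at the make-up of WT IgG and −1.02 without the Mmp12/Ccl6 and Ccl8/Apoe subsets. In the Mmp12/Ccl6 subset it was −0.77 (−1.32 to −0.22), so that its sign depended on the cells counted.

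The lectin receptors also differed outside macrophages. In Cd209a dendritic-like cells Mgl2 was 72.4 CPM in WT IgG (268 cells) and 943 CPM in WT anti-PD1 (165 cells), a log2 ratio of 3.69 (3.35 to 4.02). Mrc1 in the same cells was 55.3 and 1013 CPM (4.17, 3.80 to 4.55). Of 8406 genes in these cells, 14.4% were higher and 7.59% lower. After thinning, 4.82% and 48.5% of these cells carried an Mgl2 UMI and 3.51% and 45.6% an Mrc1 UMI, against at most 0.198% and 2.97% of T-like cells. Clec10a, the close paralog of Mgl2, was 101 and 372 CPM there, and how reads that match both genes were counted was not checked. The 61 classical monocyte-like cells of WT anti-PD1 held 1022 CPM of Mrc1 against 59.3 CPM in WT IgG, and Chil3 was lower in them (302 against 645 CPM, −1.09, −1.43 to −0.76). Of 7712 genes in this class, 16% were higher and 10.2% lower. The mix of its subsets also differed. The Lyz2/Gpr141, Thbs1/F10, Ifit1bl1/Ly6c2 and Lyz2/Hp subsets held 1, 21, 8 and 31 cells in WT anti-PD1. In WT IgG they held 265, 278, 418 and 151, and no fixed make-up is given for this class. Mature dendritic-like cells did not share the rise of the lectin receptors. Their Mgl2 level was 98.75 CPM in WT IgG and 47.5 CPM in WT anti-PD1, from 25 and 21 UMIs (−1.04, −1.86 to −0.22). Mrc1 was 27.65 and 31.7 CPM in them. Of 8003 genes in mature dendritic-like cells, 16.8% were higher and 13.2% lower.

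Markers of other cells moved with WT anti-PD1 too. Summed over 8 fibroblast markers, macrophage-like cells of this library held 724 CPM, against 49.3 to 83.0 CPM in the others, with 2 of 8 markers under 10 CPM and none at 0. Fibroblast-like cells were the main source of Igf1 in every library (178.5 to 379 CPM), and their part in the Igf1 level of macrophage-like cells was not tested. For the other genes the direct values are that fibroblast-like cells of WT anti-PD1 held 7.16 CPM of Mrc1, 5.80 CPM of Arg1, 5.08 CPM of Retnla and 0.480 CPM of Mgl2. T-like cells of WT anti-PD1 held 18.3 CPM of Mrc1 and 16.4 CPM of Arg1, compared with 1.97 and 1.41 CPM in WT IgG.

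Anti-PD1 in A159V tumors gave a different set. Of the 9 genes, 2 were higher with anti-PD1, where 1.32% of 8194 genes were higher, and 1 was lower, where 0.659% were. Nos2 was 67.7 CPM in A159V IgG and 286 CPM in A159V anti-PD1 (log2 ratio 2.06, 1.86 to 2.26), and Arg1 was 613 and 1288 CPM (1.07, 0.9999 to 1.141). The enzymes that compete for arginine were thus higher together. Retnla was lower, at 57.3 and 9.91 CPM (−2.42, −2.80 to −2.04), with 186 and 64 UMIs, and without the 10 highest cells its levels were 2.49 and 0.935 CPM. Without the Mmp12/Ccl6 and Ccl8/Apoe subsets the Retnla ratio turned to 0.92. Mrc1 was 502 and 676 CPM (0.43, 0.35 to 0.51), Cbr2 19.7 and 39.0 CPM (0.95, 0.57 to 1.33), Chil3 41.3 and 70.0 CPM (0.75, 0.48 to 1.02), Mgl2 8.01 and 12.5 CPM (0.59, 0.02 to 1.16), Folr2 74.2 and 62.4 CPM (−0.25, −0.47 to −0.02) and Igf1 23.1 and 20.6 CPM (−0.16, −0.55 to 0.23). The Mgl2 direction depended on the processing, with ratios from −0.93 to 1.16, and its 10 highest cells held 69.2% and 64.2% of its UMIs. Cbr2 passed 2-fold under 6 of 13 other ways of processing the counts, and Chil3 under 3.

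The Nos2 difference appeared in the 3 macrophage-like subsets with enough cells. It was 17.2 CPM in A159V IgG and 101 CPM in A159V anti-PD1 in the C1qa/C1qc subset, 134.5 and 510.5 CPM in the Cxcl3/Pf4 subset (1.92, 1.69 to 2.14) and 45.7 and 172 CPM in the H2-Aa/H2-Eb1 subset (1.89, 1.15 to 2.63). Classical monocyte-like cells showed it as well (47.7 and 203 CPM, 2.07, 1.79 to 2.34), except their Lyz2/Hp subset, with 3 UMIs in each library, while nonclassical monocyte-like cells were at 9.13 and 9.03 CPM from 3 and 5 UMIs. It was also seen in tumor-like cells at a smaller size (20.2 and 44.7 CPM, 1.11, 1.03 to 1.19), whereas fibroblast-like cells had less Nos2 in A159V anti-PD1 (53.4 and 13.2 CPM, −1.94, −2.51 to −1.37). At the make-up of A159V IgG, Nos2 (2.02) was the 1 gene past 2-fold higher and Retnla (−3.39) the 1 past it lower, and Arg1 was 0.93. Of 8232 genes, 1.26% were higher and 0.547% lower at that make-up. A Nos2 UMI was found in 80 of 1012 thinned macrophage-like cells of A159V IgG (7.91%, 6.32 to 9.74) and in 358 of 1596 of A159V anti-PD1 (22.4%, 20.4 to 24.6), with 0.226% and 0.351% of T-like cells positive. Arg1 was 0.96 to 1.04 higher on the log2 scale in the same 3 subsets, so that it sat on the 2-fold line, and it was 58.0 and 194 CPM in classical monocyte-like cells (1.73, 1.47 to 1.98). The Arg1 call was lost under 3 of 13 other ways of processing the counts, over which the ratio ran from 0.73 to 1.22. Mrc1 was higher in the H2-Aa/H2-Eb1 subset alone of the 3 (274 and 602 CPM, 1.13, 0.82 to 1.45), and in the Cxcl3/Pf4 subset it was 404 and 278 CPM (−0.54, −0.70 to −0.38).

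**Figure D4:**
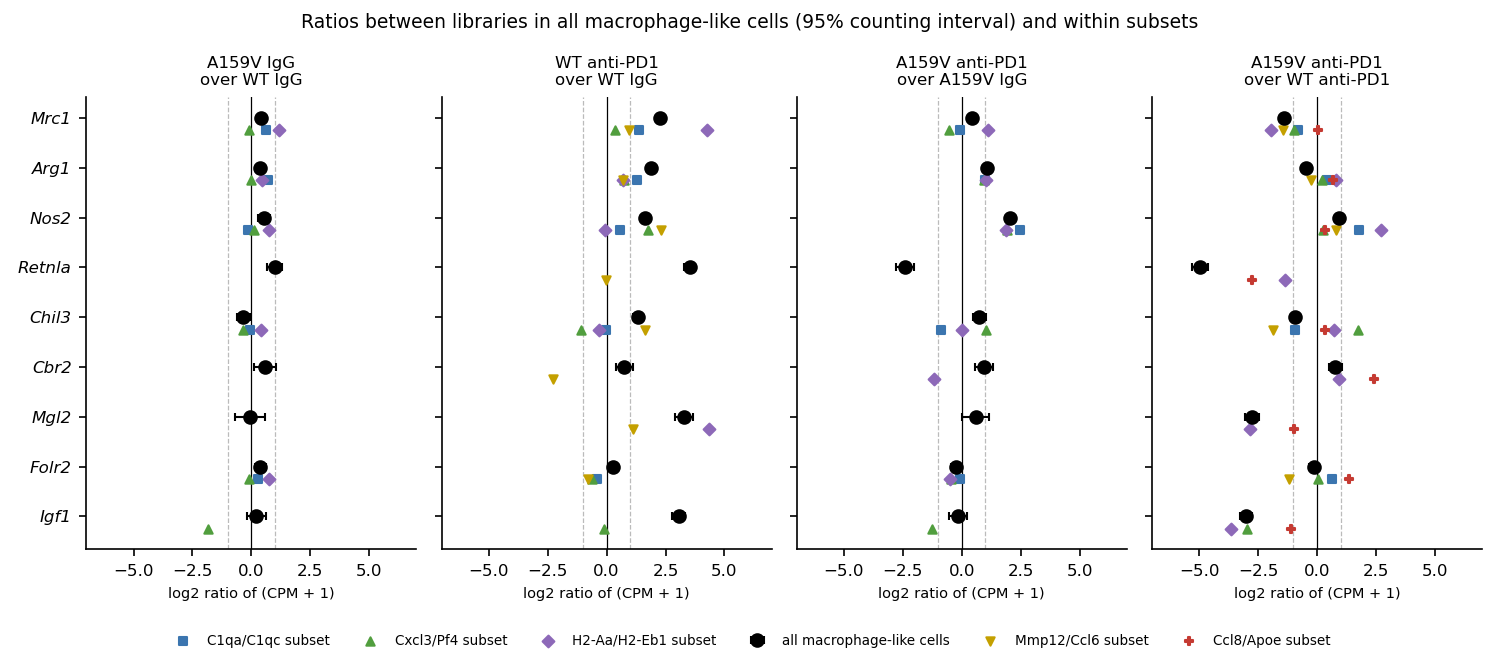
Log2 ratios of CPM + 1 between libraries (x axis) for each gene in all macrophage-like cells (black, with 95% counting intervals) and within subsets (colored). Dashed lines mark 2-fold and subset ratios resting on 3 or fewer UMIs in a library are not drawn. For Nos2 in A159V the subset points sit beside the black point, and for Retnla in WT the subset point sits at −0.01 while the black point sits at 3.53.

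The anti-PD1 libraries were then set against each other. In macrophage-like cells 4 of the 9 genes were lower in A159V anti-PD1 than in WT anti-PD1 and 0 were higher, where 4.51% of 8331 genes were lower and 3.84% higher. They were Retnla (9.91 against 340 CPM, −4.96, −5.29 to −4.64), Igf1 (20.6 against 174 CPM, −3.02, −3.26 to −2.77), Mgl2 (12.5 against 90.3 CPM, −2.75, −3.06 to −2.44) and Mrc1 (676 against 1810 CPM, −1.42, −1.47 to −1.37). Nos2 lay just under the line on the other side (0.95, 0.85 to 1.05) and Arg1 was −0.47 (−0.51 to −0.43). At the make-up of WT anti-PD1, which gives most weight to the 70 Mmp12/Ccl6 cells of A159V anti-PD1, the set changed to 4 lower and 1 higher, where 4.39% of 8606 genes were lower and 6.9% higher. Retnla (−3.52), Mgl2 (−2.17), Igf1 (−1.765) and Chil3 (−1.03) were past 2-fold lower, Cbr2 was past it higher (2.18), and Mrc1 was −0.52. Folr2 turned from −0.14 to 0.63 and Arg1 from −0.47 to 0.02. This comparison shares libraries with the earlier ones and is not independent of them.

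The Ccl8/Apoe subset was compared directly, with 139 and 538 cells. Its Mrc1 level differed little between A159V anti-PD1 and WT anti-PD1 (3326 and 3197 CPM, 0.06, −0.01 to 0.13). Cbr2 was higher in A159V anti-PD1 (356 against 66.0 CPM, 2.41, 2.12 to 2.70), as was Folr2 (319 against 123 CPM, 1.37, 1.11 to 1.63). Retnla was lower (80.1 against 542 CPM, −2.74, −3.15 to −2.34), and so was Igf1 (176 against 383 CPM, −1.12, −1.40 to −0.83). The members thus moved in opposite directions inside 1 subset, with Cbr2 and Folr2 on 1 side and Retnla and Igf1 on the other. In Cd209a dendritic-like cells Mgl2 was 200 against 943 CPM (−2.23, −2.43 to −2.03) and Mrc1 161 against 1013 CPM (−2.65, −2.87 to −2.43). Of 8337 genes in these dendritic cells, 6.36% were higher and 11.8% lower.

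Shares of positive cells were compared at equal depth, since the libraries differ in UMIs per cell. Mrc1 was found in 27.3% (24.7 to 29.9), 68.1% (65.7 to 70.5), 32.8% (29.9 to 35.8) and 31.8% (29.5 to 34.2) of macrophage-like cells in the 4 libraries (exact Clopper-Pearson intervals). The A159V libraries had overlapping intervals for positive cells although their Mrc1 CPM were 502 and 676. Arg1 was found in 23.6%, 58.6%, 29.9% and 43.7% of the cells in the same order. Before thinning the Mrc1 shares were 38.3%, 78.8%, 38.5% and 41.0% and the Arg1 shares 30.5%, 64.6%, 31.6% and 49.7%. In T-like cells, which should lack both genes, the thinned shares were 0 to 2.97% for Mrc1 and 0.362% to 3.07% for Arg1, highest in WT anti-PD1 in both cases, with median depths of 1659 to 2925 UMIs against 2123.5 to 3764 in macrophage-like cells. Igf1 was found in 15.3% of macrophage-like cells in WT anti-PD1 and 1.5% to 2.47% elsewhere, and Mgl2 in 8.57% and 0.94% to 1.28%. Thinning left out 135, 360, 346 and 222 macrophage-like cells that had fewer than 1500 UMIs.

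Whether single cells carried both arms of the polarization scheme was asked by counting the cells with a UMI of both genes against the product of the shares, in thinned macrophage-like cells. Arg1 and Nos2 were found together more often than this product in all 4 libraries. Both were present in 32, 143, 42 and 248 cells where 15.6, 103, 24.0 and 157 were expected, ratios of 2.05, 1.39, 1.75 and 1.58. In WT anti-PD1 81.2% of the Nos2-positive cells carried Arg1, and in A159V anti-PD1 69.3% did. With the expectation computed inside each subset the ratios were 1.21 to 1.32, closer to 1 than over the whole class.

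Mrc1 and Nos2 met less often than the product in the anti-PD1 libraries, and close to it in the IgG libraries. Their ratio was 1.11, 0.725, 0.838 and 0.562 in the 4 libraries, from 20, 87, 22 and 64 cells where 18.0, 120, 26.3 and 114 were expected. Inside subsets the ratios were 0.735 to 1.07, and in A159V IgG the ratio was 1.01 in cells with more than 1000 genes. Nos2 was found with Cbr2 in 2 of 5.23 expected cells in WT anti-PD1 and 0 of 11.2 in A159V anti-PD1, and with Folr2 in 11 of 12.4 in WT anti-PD1, 1 of 6.09 in A159V IgG and 10 of 19.7 in A159V anti-PD1. In WT anti-PD1 the Nos2 and Folr2 ratio was 0.887, and it was 1.02 inside subsets and 1.14 without thinning. Mrc1 was found with Folr2 at 1.21 to 2.18 times the product and with Cbr2 at 1.43 to 3.05 times in the 3 libraries with at least 5 expected cells, which came to 1.1 to 1.36 and 1.19 to 1.60 inside subsets, and 47 of the 50 Cbr2-positive cells of A159V anti-PD1 carried Mrc1. Retnla and Mgl2 met in 26 cells of WT anti-PD1 where 7.46 were expected (3.49), which stayed at 3.76 inside subsets. The pairs did not fall into separate groups, since Arg1 was found with Folr2 at 1.25 to 1.74 times the product and with Mrc1 at 1.04 to 1.44 times in the 4 libraries.

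**Figure D5:**
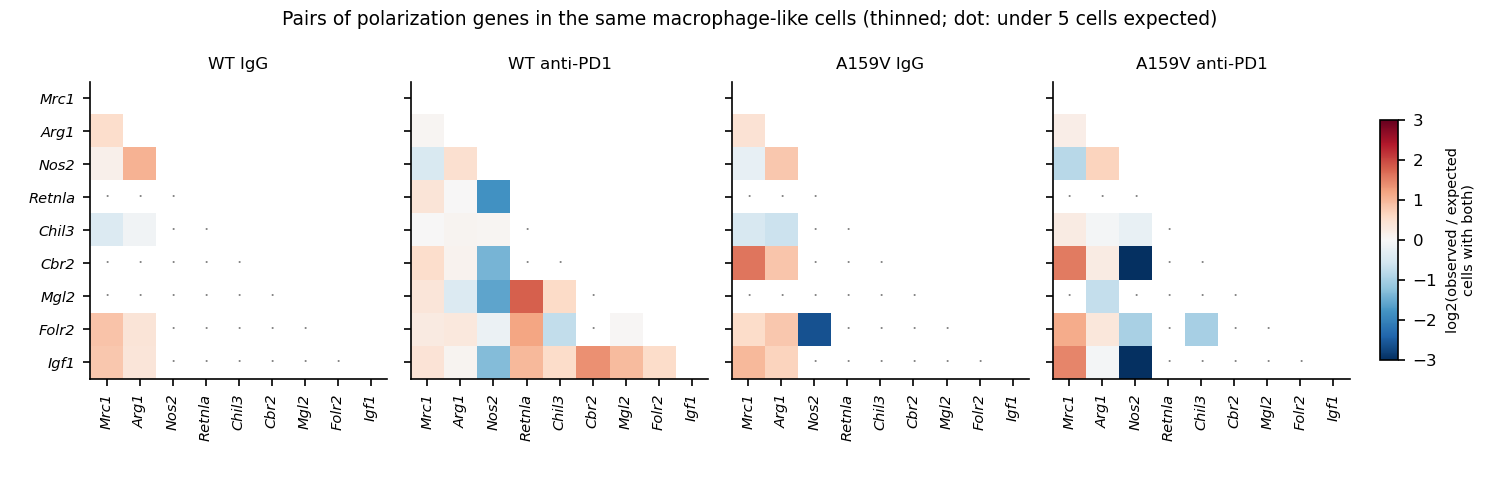
Observed over expected macrophage-like cells with both genes of a pair (log2 color scale, limited to −3 and 3, where a pair never seen together is drawn at −3), 1 panel per library, with dots where under 5 cells were expected. Arg1 with Nos2 is above 0 in the 4 panels, and Nos2 with Cbr2, Folr2 and Igf1 is below 0 wherever it could be computed.

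Counting all 9 genes at once, 48.8%, 10.9%, 41.3% and 30.9% of thinned macrophage-like cells of the 4 libraries carried none of them. At least 4 genes were found in 0.597%, 6.91%, 1.58% and 1.88% of cells. The log2 levels of 6560 genes were compared with those of each member by Pearson's r over 45 profiles of a subset in a library. The genes most alike were Ctsl (0.928), Pf4 and Lmna for Arg1, and Bnip3 (0.85), Pgk1 and Aldoa for Nos2. For Mrc1 they were Rab3il1 (0.891), Pdia4 and Dab2, for Chil3 Vcan (0.94), Plcb1 and Arhgef37, and for Cbr2 Gas6 (0.921), Npl and Cd163. Folr2 was most like Itsn1 (0.925), Mgl2 like Slc30a4 (0.865) and Clec10a (0.864), Igf1 like Gja1 (0.863) and Retnla like Ksr2 (0.762). The profiles share libraries and cell classes, so these values only describe them. Between members, r was 0.759 for Arg1 and Nos2, 0.778 for Mrc1 and Folr2 and −0.496 for Chil3 and Mgl2.

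Other genes of the same programs were counted in macrophage-like cells. These lists were also chosen with earlier results of these data known, so their counts do not measure enrichment either. Of 22 further alternative activation genes, 15 reached the minimum level, of which 7 were higher and 0 lower in WT anti-PD1 against WT IgG, 2 were higher and 1 lower in A159V anti-PD1 against A159V IgG, and 0 were higher and 6 lower in A159V anti-PD1 against WT anti-PD1. The median log2 ratios were 0.95, 0.04 and −0.69. The shares of all genes called were 5.76% and 5.92%, 1.32% and 0.659%, and 3.84% and 4.51%, higher and lower. At a fixed make-up the counts were 3 higher and 0 lower, 0 higher and 1 lower, and 1 higher and 3 lower. The shares of all genes were then 3.6% and 3.9%, 1.26% and 0.547%, and 6.9% and 4.39%, higher and lower. Ccl24, an eosinophil chemokine, was 4.57, 89.8, 13.55 and 28.3 CPM in the 4 libraries. Pdcd1lg2, which encodes the PD1 ligand PD-L2, was 23.4 CPM in WT IgG and 144.5 CPM in WT anti-PD1 (2.57, 2.32 to 2.83), and 33.9 CPM in A159V anti-PD1. Between the IgG libraries 4 genes were higher in A159V and 0 lower, where 0.815% of all genes were higher and 0.693% lower. The 4 included Mmp12, the macrophage elastase (1808 against 746.5 CPM), and at a fixed make-up Ccl24 alone of the list was past 2-fold.

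Of 20 classical activation genes, 16 or 17 reached the minimum. Of all genes, 0.815% were higher and 0.693% lower between the IgG libraries. With anti-PD1 these shares were 1.32% and 0.659% in A159V and 5.76% and 5.92% in WT. Between A159V IgG and WT IgG 3 were lower and 0 higher, namely Cxcl9, an interferon-induced T cell chemokine (27.4 against 247 CPM, −3.13, −3.43 to −2.83), Gbp2, an interferon-induced GTPase (71.1 against 185 CPM, −1.36) and Il6 (18.2 against 42.7 CPM, −1.19). In A159V anti-PD1 against A159V IgG 4 were higher and 0 lower, namely Cxcl9 (139 CPM, 2.30), Gbp2 (339 CPM, 2.24), Il6 (1.23) and the interferon regulator Irf1 (1.20). In WT anti-PD1 against WT IgG 1 was higher (Gbp2) and 3 were lower (Ccl5, Cd80 and Cxcl9). The genes named for these 3 comparisons were also past 2-fold at a fixed make-up, in the same direction, and Il12b joined those higher in A159V IgG. Cxcl9 and Nos2, both induced by interferon gamma, were both higher with anti-PD1 in A159V, while in WT Nos2 was higher and Cxcl9 lower.

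Among 10 arginine metabolism genes, of which 9 reached the minimum, Slc7a2, a transporter that brings arginine into macrophages, was 44.6, 346, 42.8 and 90.7 CPM in the 4 libraries. It was higher with anti-PD1 in both genotypes (2.93, 2.74 to 3.12 and 1.07, 0.81 to 1.33). At a fixed make-up, however, 0 of the 9 arginine metabolism genes passed 2-fold in either. Of all genes, 3.6% were then higher and 3.9% lower in WT, and 1.26% and 0.547% in A159V. Arg2, the mitochondrial arginase, was 88.1 and 195 CPM in WT IgG and WT anti-PD1 (1.14, 0.99 to 1.29). Of 12 tissue-resident type genes, 7 or 8 reached the minimum. In A159V IgG against WT IgG 2 were higher and 0 lower (0.815% and 0.693% of all genes). With anti-PD1 3 were higher and 0 lower in WT (5.76% and 5.92%), and 0 and 0 in A159V (1.32% and 0.659%). In A159V anti-PD1 against WT anti-PD1 2 were higher and 1 lower (3.84% and 4.51%). Selenop was 125 CPM in WT IgG and 641 CPM in WT anti-PD1 (2.35, 2.23 to 2.46, and 1.52 at a fixed make-up). At a fixed make-up the counts were 1 and 0, 1 and 0, 0 and 1, and 4 and 0, in the same order. The shares of all genes were then 0.668% and 0.559%, 3.6% and 3.9%, 1.26% and 0.547%, and 6.9% and 4.39%. Lyve1 was 7.43, 0.915, 21.25 and 13.2 CPM in the 4 libraries, with 85 UMIs in A159V anti-PD1 and 8 in WT anti-PD1. It was the gene past 2-fold lower with anti-PD1 in A159V at a fixed make-up (−1.64). Of 15 genes for the signals and their receptors, 10 or 11 reached the minimum, and 1 was higher (Igf1r, not past 2-fold at a fixed make-up) and 1 lower (Csf1) in WT anti-PD1 against WT IgG and none past the line in the other comparisons. These single calls lay near the shares of all genes in that comparison, 5.76% higher and 5.92% lower.

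The cytokines that give the alternative state were sparse. Il4 was counted in T-like cells at 5, 179, 11 and 19 UMIs in the 4 libraries, or 1.41, 43.8, 6.44 and 6.03 CPM. Il13 was 3.09, 57.7, 5.27 and 14.6 CPM in the same cells. Ifng, the cytokine of the classical state, was 200, 180, 70.2 and 186 CPM. The library with the most Il4 and Il13 was also the library with the most Mrc1, Mgl2 and Retnla in macrophage-like cells, and the least Ifng was in A159V IgG while the least Nos2 was in WT IgG. With 4 libraries no relation between these levels was tested.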

How the data were processed

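Single-cell RNA was measured in 4 libraries, 1 per group, with 10x 3′ chemistry. The deposited values are raw UMI counts per gene and cell, made by the authors with Cell Ranger on the mm10 mouse genome. The file headers name version 7.2.0 and the submitters' processing notes version 5.0.1, and which of them made the counts is not settled here. The counts precede the removal of ambient RNA and doublets that the study's methods describe.

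Cells with more than 500 genes were kept and predicted doublets (425, 374, 529 and 631) removed by simulation, with the expected share of doublets growing in proportion to the cells of a library. Cells were clustered on 2000 variable genes, without the 9 genes or the listed ones, over 20 components (Leiden, resolution 1, scikit-learn 1.9.0, leidenalg 0.10.2), and named from 19 marker lists, so class names are rebuilt and not the authors'. CPM from summed counts were given exact Poisson intervals, and delta-method intervals were used for log2 ratios of CPM + 1. Shares were taken after thinning cells to 1500 UMIs. Intervals and floors cover counting error only. WT IgG is the denominator of 2 comparisons, which share it. Values past 2-fold with at least 10 CPM in 1 library are called higher or lower. The genes named outside the 9 were chosen among those of the lists past 2-fold (at most 6 per list and comparison, by size) and the 3 genes most like each of the 9. The 9 genes and the lists were chosen with earlier results of these data known. The ratio script was tested on simulated data. Mgl2 and Clec10a, and Chil3 and Chil4, are close copies, and how the counting treated reads that match both was not checked. Alternatives changed filters, doublets, clustering, scaling, pseudocount, thinning and the treatment of stray RNA.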

Additional observations from a re-analysis of the deposited data

Results flagged for a closer look

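The anti-PD1 to IgG ratio of Retnla in macrophage-like cells went opposite ways in the genotypes, at a log2 ratio of 3.53 in WT and −2.42 in A159V. Folr2 did so at a smaller size, with 0.28 in WT and −0.25 in A159V. At a fixed make-up Folr2 was −0.75 in WT and −0.47 in A159V, so its directions were then the same. Retnla was 0.54 and −3.39 at a fixed make-up. In A159V it rested on few cells, with 2.49 and 0.935 CPM left without the 10 highest cells of each library. In WT these levels were 3.47 CPM with IgG and 179 CPM with anti-PD1. With 1 library per group the difference between the genotypes was not tested for either gene.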

How the results depend on the processing

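No paired analysis was possible because each group has 1 library and the labels give no replicate numbers. Of the planned values of single genes, 424 kept their side of 2-fold, 34 came to pass it, 9 no longer did and 1 that had passed it reversed. Of the 424, 399 kept their direction and 25 under 2-fold changed sign, among them Mrc1, Arg1 and Nos2 between the IgG libraries in cells with more than 1000 genes. In A159V IgG over WT IgG no gene passed 2-fold, and 1 did with cells over 10% mitochondrial UMIs left out, with doublets kept, with Leiden resolution 0.5 or 2, with the listed genes allowed for clustering, with a marker gate or with T-like CPM subtracted. That count was 2 with each library clustered on its own or with cells carrying stray marker UMIs left out. In A159V anti-PD1 over A159V IgG 3 genes passed and 6 did with the marker gate. Genes whose shares had intervals apart went from 1 to 3 between the IgG libraries when thinned to 3000 UMIs, and from 2 to 4 between the A159V libraries without thinning. Pairs found together more often than the product of shares went, without thinning, from 7 to 16 in WT IgG, from 8 to 13 in A159V IgG and from 8 to 17 in A159V anti-PD1, and in A159V IgG to 5 when thinned to 1000 UMIs. The Chil3 ratio in WT was −0.0126 with stray-marker cells left out, which kept 311 of 1807 cells of WT anti-PD1. In settings chosen after seeing the data, without the Mmp12/Ccl6 and Ccl8/Apoe subsets, the ratio of Folr2 in WT was −1.02 and that of Retnla in A159V was 0.92, and at a fixed make-up 1 gene passed 2-fold between the IgG libraries and 4 in WT, where Chil3 was −0.0451. Apart from the construction of each setting, the cause was not tested.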
